A study of Mus musculus with 6 samples.

Results

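Stem and progenitor surface markers are the membrane proteins by which blood stem cells, early progenitors and the stem-like cells of leukemias are told apart with antibodies. The 10 genes described here, Kit, Flt3, Cd34, Prom1, Ly6a, Thy1, Procr, Slamf1, Cd48 and Fcgr3, were taken from the deposited gene table by their symbols, and they were 10 of its 55421 genes. Their mRNA was compared between AE9a leukemia cells of Ddit4 wild-type origin (AE9a-Ddit4+/+, 3 libraries) and AE9a leukemia cells of Ddit4 knockout origin (AE9a-Ddit4-/-, 3 libraries). The protein of Ddit4 is made under stress, such as low oxygen, and restrains mTOR signaling. Both groups carried AML1-ETO9a (AE9a), a truncated product of the AML1-ETO fusion gene of acute myeloid leukemia (AML), which a retrovirus with a GFP reporter had brought into bone marrow cells of young adult C57BL/6 donors that had been enriched for c-Kit, the protein of Kit. The infected cells gave leukemia in irradiated recipients, and RNA was sequenced from leukemia cells of the bone marrow. The labels also give a culture medium, without saying whether RNA was taken after culture. The sources used here do not say whether the cells sequenced had been sorted for GFP. Nor do they say whether the libraries of a group came from separate leukemias. In the primary transplants of the study, fewer knockout recipients developed leukemia than there are knockout libraries. The 3 knockout libraries may therefore not stem from 3 separate primary leukemias. The p values measure the spread between libraries, which may be technical.

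In normal mouse marrow these proteins form a sorting scheme. Stem and multipotent progenitor cells carry Kit and Ly6a (Sca-1) and lack the markers of mature lineages. Within that fraction, long-term stem cells are high in Procr (EPCR) and Slamf1 (CD150), carry little Thy1 and lack Cd48, Cd34 and Flt3, whereas multipotent progenitors gain Cd34, Flt3 and Cd48. Myeloid progenitors that have lost Ly6a are separated by Cd34 and by an antibody to the Fc gamma receptors CD16/32, of which Fcgr3 is one. The genes also serve other cells, and Thy1 is abundant on T cells, Cd34 on endothelium, Kit on mast cells, and Cd48 and Fcgr3 on many mature leukocytes.

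Of the 10 markers, 8 were higher in knockout cells, 0 were lower and 2 were not past the threshold, an adjusted p below 0.05 in the quasi-likelihood test of edgeR over all 18375 genes tested. All 10 passed the filter on low counts. Thy1, Ly6a, Cd34, Procr and Kit rose most, Slamf1, Fcgr3 and Flt3 rose less, and the log2 fold changes of Prom1 and Cd48 were -1.48 and -1.05. Differences were widespread in these libraries. Of all genes tested, 19.4% were higher in knockout cells and 10.7% were lower, 30.1% in all. The 3 knockout libraries lay above the 3 wild-type libraries in 8 of the 10 markers and below them in 1, against 27.9% and 22.2% of all genes tested. The median log2 fold change of the markers was 3.31, that of all genes 0.04. Summed over the 10 markers, expression ran from 211.5 to 243.9 CPM (a gene's counts for every 1e+06 counts of the library, after TMM scaling) in wild-type and from 1193 to 1464 CPM in knockout libraries.

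**Figure D1:**
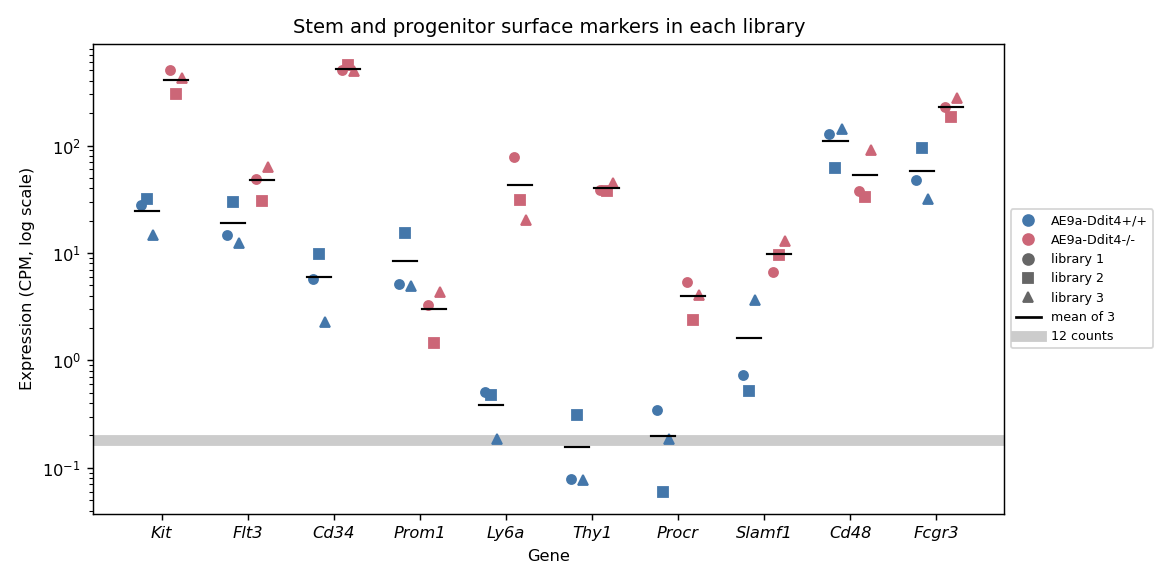
Expression of the 10 surface markers in each of the 6 libraries, in CPM on a log scale, with the mean of each genotype as a bar and the level of 12 counts, the limit of detection used here, as a grey band. The knockout libraries (red) lie above every wild-type library (blue) for 8 genes, by a factor of 1.02 for Flt3 and of 122.5 for Thy1, and the groups overlap for Cd48.

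Library facts that bear on every value below were read first. Totals ran from 62141558 to 72717681 counts. Ddit4 itself, the targeted gene, had 228, 162 and 342 CPM in wild-type libraries and 84.9, 77.7 and 85.9 CPM in knockout libraries (log2 fold change -1.56, edgeR adjusted p 0.00635), so that its mRNA was lower and still present. By western blot, the study reports that the protein was absent from knockout leukemia cells. Markers of the sex of the cells differed with the genotype. The Y-linked gene Ddx3y had at most 0.0774 CPM in wild-type libraries and 88.2 to 125 CPM in knockout libraries, and Xist, which coats the silenced X chromosome, had 566 to 1032 against 20.3 to 129 CPM. Genotype and sex of the cells therefore cannot be told apart in any comparison here. The knockout libraries held mRNA of both genes, and whether they mix cells of both sexes was not tested. Where the study gives the sex of recipients, they were female. Mitochondrially encoded genes took 5.03 to 7.91% of counts in wild-type and 11.3 to 16.5% in knockout libraries, and their part in the results was not tested beyond a fit without those genes, in which the same 8 markers were called. Of the myeloid genes that define the cells, Mpo (488 ± 328 and 456 ± 104 CPM), Spi1, Cebpa and Runx1 were expressed in all libraries and did not pass the threshold, whereas Myb rose by 0.78 and Runx1t1, of which the transgene holds a part, by 3.55 on the log2 scale. In bulk RNA, a difference in the share of cells of a type and a difference in RNA per cell cannot be told apart.

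Kit encodes the receptor for stem cell factor, a tyrosine kinase needed by stem cells, progenitors and mast cells. Kit (ENSMUSG00000005672, chromosome 5, 75574916 to 75656722 on GRCm38, plus strand) had 28.0, 31.6 and 14.6 CPM in wild-type libraries and 509, 304 and 422 CPM in knockout libraries. The lowest knockout library was 9.63 times the highest wild-type library. Kit thus rose from 24.7 ± 8.92 to 411 ± 103 CPM (SD, n = 3 each), or by 4.06 on the log2 scale, with a standard error (SE) of 0.36, a 95% interval of 3.20 to 4.91 and an edgeR adjusted p of 0.00055. All libraries descend from marrow enriched for c-Kit protein, and at the mRNA level Kit stood above 49.9% of genes tested in wild-type and above 94.6% in knockout cells, per kb of exon.

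Flt3 encodes a related tyrosine kinase, the receptor for FLT3 ligand, which marks lymphoid-primed and other multipotent progenitors. Flt3 (ENSMUSG00000042817, chromosome 5, 147330741 to 147400489, minus strand) had 14.7, 29.9 and 12.5 CPM in the wild-type libraries, against 48.6, 30.5 and 63.7 CPM in the knockout libraries. The groups nearly touched, since knockout library 2 was 1.02 times wild-type library 2. The mean rose from 19.0 ± 9.45 to 47.6 ± 16.6 CPM (log2 fold change 1.32, SE 0.41, 95% interval 0.36 to 2.28, edgeR adjusted p 0.0464). This call was lost in 7 of 14 alternative fits, among them those without wild-type library 1, wild-type library 3, knockout library 1 or knockout library 3 (adjusted p 0.11 to 0.144 in edgeR), and with the replicate number as a block (0.129).

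The ligands and signaling partners of both receptors were also read. Kitl, stem cell factor, had a mean of 0.0422 CPM in wild-type cells against 0.711 CPM without Ddit4 and did not pass the threshold (edgeR adjusted p 0.0609). Flt3l, FLT3 ligand, rose from 17.7 ± 2.10 to 48.5 ± 4.05 CPM (log2 fold change 1.45, edgeR adjusted p 0.00231). Among 21 genes of KIT and FLT3 signaling, 6 rose and 2 fell, against 19.4% and 10.7% of all genes tested. The median log2 fold change of these 21 was 0.16. The largest increases were those of the adaptor Sh2b2 (2.22) and of Socs1, an inhibitor of cytokine signaling (2.01), and Grb2 and Dok1, adaptor proteins bound to activated receptors, fell by 0.93 and 0.80 on the log2 scale. Of the other type III receptor tyrosine kinases, which share the build of Kit and Flt3, 2 of 3 rose. Pdgfrb went from 1.18 ± 1.01 to 154 ± 13.7 CPM (log2 fold change 7.02) and Pdgfra rose at least 9.16-fold, counted from a limit of 12 counts per library because every wild-type library lay at or under it. The third, Csf1r, the receptor of monocytes and macrophages, had means of 37.7 and 50.9 CPM and did not pass the threshold.

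Cd34 encodes a sialomucin of progenitors and endothelium. Cd34 (ENSMUSG00000016494, chromosome 1, 194938819 to 194961279, plus strand) had 5.68, 9.83 and 2.26 CPM in wild-type libraries and 507, 558 and 493 CPM in knockout libraries. Its lowest knockout library was 50.2 times its highest wild-type library, and the knockout libraries were within a factor of 1.13 of each other. The increase from 5.92 ± 3.79 to 519 ± 34.4 CPM gave a log2 fold change of 6.45 (SE 0.57, 95% interval 5.13 to 7.78, edgeR adjusted p 0.000504). An annotated antisense gene, Gm16897, lies over Cd34 and had 6.22 to 6.996 CPM in knockout libraries and at most 0.236 CPM in wild-type libraries, which is little beside Cd34. Whether counting respected strand is not given in the sources used here. Because Cd34 was the marker with the most even level among knockout libraries, the 250 bases before its RefSeq start are shown (chr1:194938571-194938820 on GRCm38.p6, plus strand), with a match to an ETS word in capitals, here read on the minus strand and starting at position -142.
Cd34: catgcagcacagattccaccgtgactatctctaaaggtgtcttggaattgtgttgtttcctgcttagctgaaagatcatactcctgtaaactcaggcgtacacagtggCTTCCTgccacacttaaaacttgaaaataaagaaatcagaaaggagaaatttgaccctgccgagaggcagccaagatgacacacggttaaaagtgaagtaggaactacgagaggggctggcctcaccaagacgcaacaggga
For the searches here, the RUNX words were TGTGGT and TGCGGT, the GATA words AGATAA and TGATAA, and the ETS words AGGAAG and CGGAAG, on both strands, and the words did not overlap each other in the windows shown. Of 32851 RefSeq promoters of the same length, 18.6% held a RUNX word, 16.6% a GATA word and 39.2% an ETS word. Promoters were found for 8 of the 10 markers (all but Ly6a and Thy1), of which 4 held a RUNX word (Flt3, Cd48, Prom1 and Fcgr3), 1 a GATA word (Slamf1) and 5 an ETS word (Kit, Cd34, Procr, Slamf1 and Fcgr3). These matches are descriptions of the letters only.

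Prom1 encodes prominin-1 (CD133), a protein of membrane protrusions that marks stem-like cells of several human tissues and leukemias. Prom1 (ENSMUSG00000029086, chromosome 5, 43993620 to 44102032, minus strand) had 5.16, 15.2 and 4.89 CPM in wild-type libraries and 3.26, 1.47 and 4.31 CPM in knockout libraries. Alone among the 10 markers, its groups were apart with the knockout side lower, by 1.13 times at their closest. The log2 fold change of -1.48 (SE 0.61, 95% interval -2.91 to -0.06) did not pass the threshold (edgeR adjusted p 0.106, unadjusted 0.0433). Wild-type library 2 weighed on this value, which was -0.74 without it. In DESeq2 the adjusted p was 0.0396. Of the relatives of CD34 and prominin-1, only Podxl, the CD34-like podocalyxin, could be tested, and it fell from 161 ± 94.0 to 22.0 ± 5.83 CPM (log2 fold change -2.87, edgeR adjusted p 0.00647).

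Ly6a encodes Sca-1, a small protein held in the membrane by a lipid (GPI) anchor, which stem cells, some endothelium and activated lymphocytes carry and which interferon raises. Ly6a (ENSMUSG00000075602, chromosome 15, 74994877 to 74998031, minus strand) had 0.507, 0.472 and 0.186 CPM in wild-type libraries and 78.4, 31.1 and 20.2 CPM in knockout libraries. Of the 10 markers it had the widest spread among knockout libraries, 3.89 times from lowest to highest, but even the lowest was 39.8 times the highest wild-type library. The mean went from 0.388 ± 0.176 to 43.2 ± 30.9 CPM (log2 fold change 6.79, SE 0.71, 95% interval 5.13 to 8.46, edgeR adjusted p 0.000891). Of the windows of 100 bases in Ly6a transcripts, 1.45% also occur in Ly6c1, so that few reads could be shared. Of the other genes of the Ly6 family, 14 were listed and 8 tested, of which 3 rose and 1 fell, against 19.4% and 10.7% of all genes. Ly6k rose at least 65.6-fold and Ly6e from 433 ± 148 to 922 ± 177 CPM (log2 fold change 1.09), whereas Ly6g, an antigen of neutrophils, fell from 7.54 ± 6.19 to 0.833 ± 0.965 CPM. Shifts by chromosome were read among genes with an average log2 CPM above 4. Relative to all such genes, the median log2 fold change was 0.56 for chromosome 15, where Ly6a lies. It was 0.40 for chromosome 1 (Cd34, Slamf1, Cd48 and Fcgr3) and -0.27 for chromosome 5 (Kit, Flt3 and Prom1). The part of these shifts in the values of the markers was not tested.

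Thy1 encodes another GPI-anchored protein, present at a low level on stem cells and at a high level on T cells. Thy1 (ENSMUSG00000032011, chromosome 9, 44043384 to 44048579, plus strand) was near the limit of detection in wild-type libraries, with 5, 21 and 5 counts or 0.0792, 0.309 and 0.0774 CPM. Knockout libraries had 38.5, 37.9 and 44.6 CPM. The log2 fold change of 7.99 (SE 0.60, 95% interval 6.60 to 9.38, edgeR adjusted p 0.000299) was the largest of the 10 markers. Genes of T and NK cells were higher as well. Of 14 tested of 15 listed, 13 rose, against 19.4% of all genes tested. The summed level of the list was 11.1 to 49.6 CPM in wild-type libraries, most of it Nkg7 (9.31 to 47.2 CPM, not past the threshold), and 93.7 to 140.5 CPM in knockout libraries. Without Nkg7 the sum was 1.35 to 2.45 CPM in wild-type libraries and 86.1, 35.1 and 79.4 CPM in knockout libraries 1, 2 and 3. Cd3e, the signaling chain that defines T cells, had at most 0.103 CPM in wild-type libraries and 5.77, 0.609 and 4.31 CPM in knockout libraries, and Trac, the constant part of the T cell receptor alpha chain, had 0 counts in wild-type libraries and 8.08, 3.61 and 3.73 CPM in knockout libraries. The part of T cells in the level of Thy1 was not tested.

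Procr encodes the endothelial protein C receptor, which marks long-term stem cells and endothelium. Procr (ENSMUSG00000027611, chromosome 2, 155751117 to 155755471, plus strand) had 22, 4 and 12 counts in wild-type libraries, or 0.348, 0.0589 and 0.186 CPM, and 5.33, 2.39 and 4.09 CPM in knockout libraries. The groups were 6.85 times apart at their closest. The increase from 0.198 ± 0.145 to 3.94 ± 1.48 CPM (log2 fold change 4.31, SE 0.73, 95% interval 2.60 to 6.01, edgeR adjusted p 0.00502) left Procr at a modest level, above 40.6% of tested genes per kb of exon in knockout cells. Thbd, thrombomodulin, which works with the receptor to activate protein C, rose from 4.09 ± 1.92 to 78.8 ± 5.29 CPM (log2 fold change 4.27). The gene of its ligand, Proc, had at most 0.0544 CPM in any library and was not tested. Genes of endothelium and stroma were higher in knockout cells in 6 of 10 cases, against 19.4% of all genes tested. Their summed level was 7.34 to 17.2 CPM in wild-type libraries and 340.2 to 344.7 CPM in knockout libraries. Pecam1 (CD31) and Pdgfrb made up 82.6 to 90.2% of the knockout sums and 33.3 to 48.2% of the wild-type sums. Cdh5, the cadherin that defines endothelium, rose from 0.423 ± 0.162 to 6.75 ± 2.66 CPM, while Col1a1, a collagen of stroma, had 2.76 ± 0.489 and 5.35 ± 2.75 CPM and did not pass the threshold. The part of such cells in the levels of Procr, Cd34 and Ly6a was not tested.

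Slamf1 and Cd48 belong to the SLAM family of immune cell receptors, whose genes stand side by side on chromosome 1, and normal long-term stem cells carry the first and not the second. Slamf1 (ENSMUSG00000015316, 171767127 to 171801184, plus strand) had 0.728, 0.516 and 3.65 CPM in wild-type libraries and 6.68, 9.55 and 12.9 CPM in knockout libraries. Its wild-type libraries spread over a factor of 7.08, the widest of the 10 markers, with library 3 highest, and the groups were 1.83 times apart. The increase from 1.63 ± 1.75 to 9.71 ± 3.11 CPM (log2 fold change 2.57, SE 0.78, 95% interval 0.75 to 4.39, edgeR adjusted p 0.0427) became 3.96 without wild-type library 3, and it missed the threshold when any 1 of the other 5 libraries was left out (adjusted p 0.0661 to 0.122 in edgeR).

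Cd48 encodes the GPI-anchored ligand of CD2 and CD244. Cd48 (ENSMUSG00000015355, 171682009 to 171705258, plus strand) had 129, 61.5 and 142 CPM in wild-type libraries and 37.9, 32.9 and 90.1 CPM in knockout libraries. Knockout library 3 lay above wild-type library 2, so that the groups overlapped. The means of 111 ± 43.1 and 53.6 ± 31.7 CPM differed by a log2 fold change of -1.05 (SE 0.46, 95% interval -2.13 to 0.04), which did not pass the threshold (edgeR adjusted p 0.129). Without knockout library 3 it was -1.70 and passed (adjusted p 0.0307). The Cd48 gene ends 61868 bp before Slamf1 starts, and the 250 bases before each RefSeq start are shown because the neighbors differed in the sign of their fold change. A GATA word starts at position -130 and an ETS word at -49 in Slamf1 (chr1:171766882-171767131), and a RUNX word at -76 in Cd48 (chr1:171681742-171681991, both GRCm38.p6, plus strand), each in capitals.
Slamf1: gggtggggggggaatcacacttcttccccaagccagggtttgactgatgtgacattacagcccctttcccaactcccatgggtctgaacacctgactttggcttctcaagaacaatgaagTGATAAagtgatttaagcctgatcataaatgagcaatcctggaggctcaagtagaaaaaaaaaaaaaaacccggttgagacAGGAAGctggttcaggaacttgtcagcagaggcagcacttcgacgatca
Cd48: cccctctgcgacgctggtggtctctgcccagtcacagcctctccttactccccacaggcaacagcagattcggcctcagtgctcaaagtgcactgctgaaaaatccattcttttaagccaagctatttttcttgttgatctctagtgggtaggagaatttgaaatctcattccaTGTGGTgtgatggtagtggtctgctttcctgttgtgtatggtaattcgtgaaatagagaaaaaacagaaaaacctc

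Among the other SLAM family genes, 5 of 6 tested rose, against 19.4% of all genes tested. Cd244a, which encodes the receptor that binds CD48, went from 4.24, 3.14 and 2.18 CPM to 114, 108 and 105 CPM (log2 fold change 5.10, SE 0.30, edgeR adjusted p 0.000177), and was the SLAM gene with the largest fold change. Slamf9, Slamf6, Slamf7 and Ly9 had log2 fold changes of 3.68, 3.22, 2.95 and 2.09, although the groups overlapped for Ly9, and Cd84 had 0.56 and did not pass the threshold (edgeR adjusted p 0.053). Cd2, the other partner of Cd48 and also a gene of T cells, rose at least 20.5-fold. Of the 7 neighbors in the plot of fold changes by position, Cd48 alone had a negative value.

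**Figure D2:**
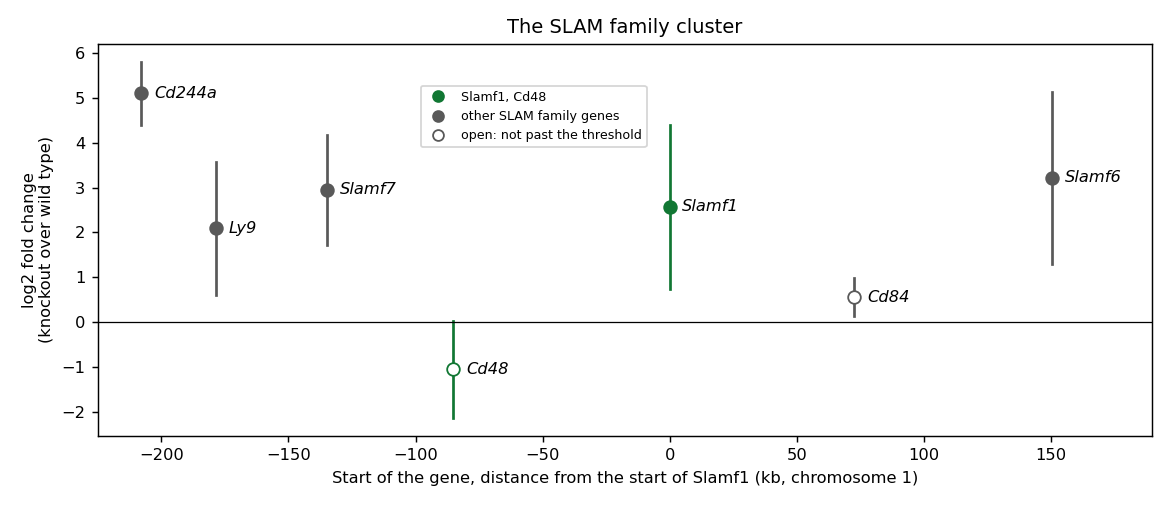
Log2 fold change (knockout over wild type) of 7 SLAM family genes against the position of each gene's start, in kb from the start of Slamf1 on chromosome 1, with 95% intervals as bars and open circles for genes not past the threshold. Cd244a stands highest at 5.10, Slamf1 has 2.57, and Cd48, at -85.1 kb, has -1.05 with an interval that reaches 0.04.

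Fcgr3 encodes the low-affinity Fc gamma receptor III (CD16), which granulocyte-macrophage progenitors and mature myeloid cells carry. Fcgr3 (ENSMUSG00000059498, chromosome 1, 171051174 to 171064935, minus strand) had 48.0, 94.6 and 31.6 CPM in wild-type libraries and 230, 185 and 275 CPM in knockout libraries. The groups were 1.95 times apart at their closest. The mean rose from 58.1 ± 32.7 to 230 ± 45.2 CPM (log2 fold change 1.99, SE 0.40, 95% interval 1.04 to 2.93, edgeR adjusted p 0.00985). Fcgr2b, an inhibitory receptor (CD32) seen by the same sorting antibody, rose from 22.8 ± 9.13 to 102 ± 16.8 CPM (log2 fold change 2.16, edgeR adjusted p 0.00333), and 2.54% of the windows of 100 bases in Fcgr3 transcripts also occur in Fcgr2b. Fcgr1 and Fcgr4 had fold changes of 1.51 and 1.31 on the log2 scale and did not pass the threshold. Fcer1g, the chain by which Fcgr3 signals, rose from 55.2 ± 22.5 to 150 ± 34.9 CPM (log2 fold change 1.44). Of 10 genes of monocytes and macrophages, 4 rose, against 19.4% of all genes tested. The summed level of these 10 was 125 to 197 CPM in wild-type libraries and 183 to 460 CPM in knockout libraries. The genes with the largest increase were Mrc1, the mannose receptor of macrophages, with 33.3, 24.5 and 59.6 CPM in knockout libraries against at most 2.09 CPM in wild-type libraries (log2 fold change 5.24, edgeR adjusted p 0.00386), and C1qc, a complement chain made by macrophages, with 46.1, 31.2 and 49.7 CPM against at most 2.14 CPM (log2 fold change 4.78, edgeR adjusted p 0.0011). C1qa and C1qb were the others that rose, and Adgre1, the macrophage antigen F4/80, had 5.57 ± 2.95 and 11.1 ± 7.04 CPM and did not pass the threshold (edgeR adjusted p 0.298). The part of macrophages in the level of Fcgr3 was not tested.

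Per kb of exon, the order of the markers differed between the genotypes. In wild-type libraries Cd48 and Fcgr3 held the first 2 places, with mean levels of 93.1 and 33.5 CPM per kb, and together made up 89.5 to 96.1% of the summed level of the 10 markers. The next, Flt3 and Kit, had 3.08 and 2.78 CPM per kb and exchanged places between libraries, and Thy1 was lowest on average at 0.0519 CPM per kb. In knockout libraries Fcgr3 was first in all 3 with a mean of 133 CPM per kb, followed on average by Cd34 with 71.2, Kit with 46.2, Cd48 with 45.1 and Ly6a with 35.9 CPM per kb, all of which changed places between libraries. Thy1, Flt3 and Prom1 were sixth, seventh and last in every knockout library, with 13.5, 7.71 and 0.420 CPM per kb. Cd48 and Fcgr3 made up 43.2 to 59.2% of the sum in knockout libraries, and Kit, Cd34 and Ly6a together 33.3 to 50.3%, against 1.48 to 4.45% in wild-type libraries. The first of these shares did not overlap between the genotypes, and neither did the second.

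**Figure D3:**
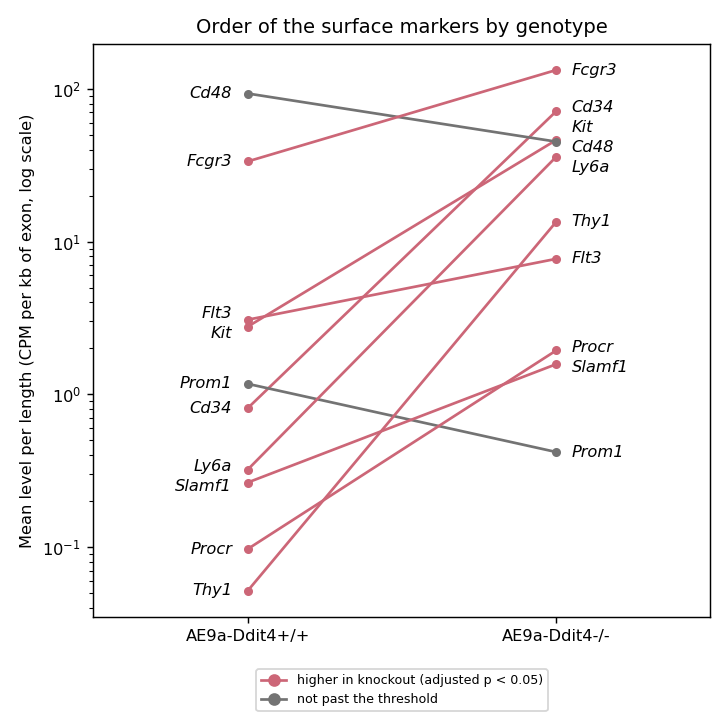
Mean expression of the 10 markers per kb of exon (CPM per kb, log scale) in wild-type (left) and knockout cells (right), a line for each gene, red where it was higher in knockout cells at an adjusted p below 0.05 and grey where it was not past the threshold. Cd48 and Fcgr3 lead on the left at 93.1 and 33.5 CPM per kb, and Cd34, Kit and Ly6a stand beside Cd48 on the right at 71.2, 46.2 and 35.9 CPM per kb.

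Ratios of markers that are read together in sorting were compared within libraries, as log2 of CPM plus 0.5, where scaling between libraries plays little part. Slamf1 over Cd48 went from -5.92 ± 0.81 to -2.30 ± 0.52 (SD, n = 3 each), a difference of 3.61, and stayed below 0 in every library, so that Cd48 had more counts than Slamf1 throughout. Cd34 over Fcgr3 went from -3.24 ± 0.29 to 1.19 ± 0.38. These ratios are of CPM not divided by length, and per kb of exon Fcgr3 exceeded Cd34 in every library of both genotypes. Flt3 over Cd34 went the other way, from 1.70 ± 0.48 to -3.49 ± 0.62. Ly6a over Kit differed by 1.34 and Procr over Kit by -1.44, and these last values depend on the added constant, since Ly6a and Procr were near the limit of detection in wild-type cells. In the edgeR fit the log2 fold change of Procr (4.31) was above that of Kit (4.06), opposite in sign to -1.44. The direction of Procr over Kit is therefore not settled by these values. With 0.5 CPM added, the groups did not overlap for any of the 5 pairs. The exact two-sided permutation test on these values gave p = 0.1 for each, the smallest it can give with 3 against 3 libraries (adjusted p = 0.1).

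Within the groups the markers varied by several fold. The highest library of a group was 2.16 to 7.08 times the lowest in wild-type cells (median 3.05 over the 10 markers) and 1.13 to 3.89 times in knockout cells (median 2.01). Wild-type library 2 was the highest of its group for 6 markers (Kit, Cd34, Flt3, Thy1, Prom1 and Fcgr3) and the lowest for 3 (Procr, Slamf1 and Cd48), and it also had the most Mpo (813 CPM) and Cebpa (65.1 CPM) of the wild-type libraries. Wild-type library 3 was the lowest for 7 markers. Among knockout libraries, library 3 was highest for 6 markers and library 2 lowest for 7.

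Other surface markers of stem and progenitor cells moved in the same direction in many cases. Of 23 such genes, 14 rose and 2 fell, with a median log2 fold change of 1.98. Tek, the angiopoietin receptor of stem cells and endothelium, had at most 0.177 CPM in wild-type libraries and 31.5, 21.0 and 21.1 CPM in knockout libraries, at least 133-fold higher. The genes that fell were Epor, the erythropoietin receptor, from 83.8 ± 14.2 to 8.33 ± 2.55 CPM (log2 fold change -3.33, edgeR adjusted p 0.00058), and Itga4, an integrin of progenitors and leukocytes (-0.63, edgeR adjusted p 0.0471). Of surface markers linked to leukemic stem cells, 4 of 9 tested rose and 0 fell, against 19.4% and 10.7% of all genes tested. Cd96 had 0 counts in wild-type libraries and was at least 90.3-fold higher. Cd200 was near the limit of detection in wild-type libraries, with 13, 0 and 0 counts. Its log2 fold change was 5.18 (SE 1.34, 95% interval 2.06 to 8.3, edgeR adjusted p 0.0243).

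**Figure D4:**
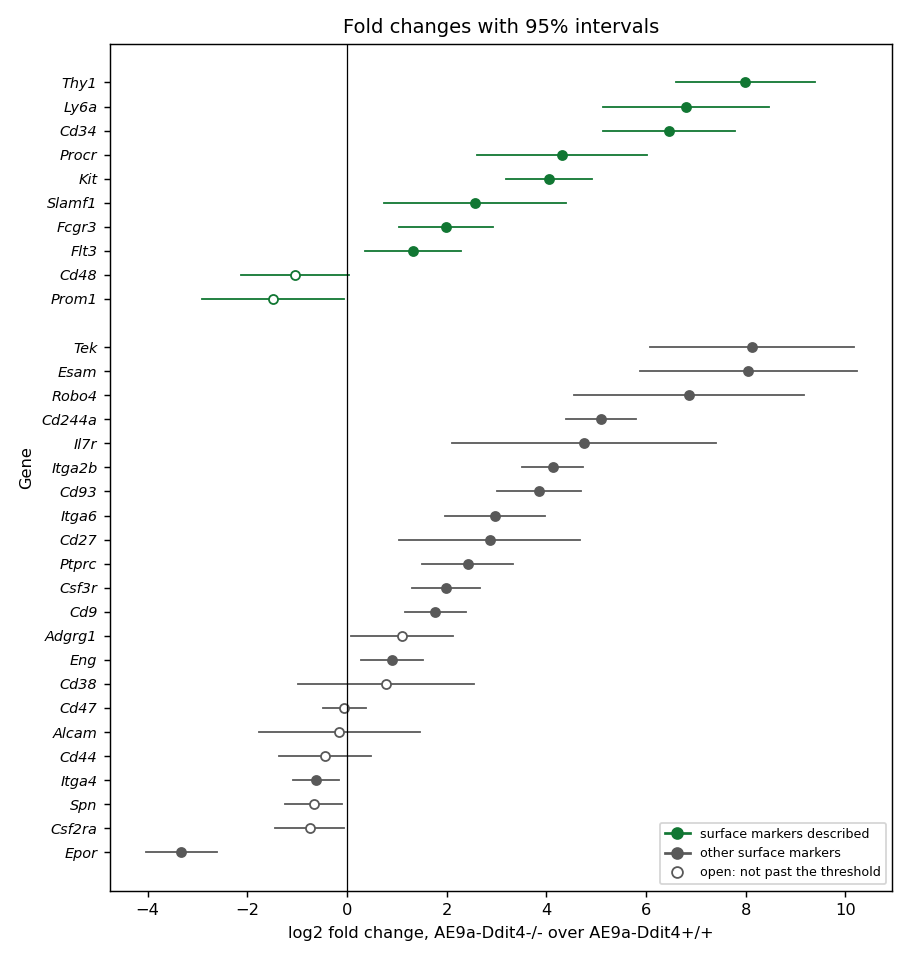
Log2 fold changes (knockout over wild type) with 95% intervals for the 10 markers (green) and for 22 other surface markers of stem and progenitor cells (grey), with open circles for genes not past the threshold. The fitted value of Tek, at or under 12 counts in all wild-type libraries, depends on the prior count. The 10 markers run from -1.48 for Prom1 to 7.99 for Thy1, and Epor is lowest at -3.33.

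Markers of mature lineages differed as well, and their part in the levels of the 10 markers was not tested. The counts below stand beside 19.4% of all genes tested that were higher in knockout cells and 10.7% that were lower. Of mast cell and basophil genes, which bear on Kit, 3 of 7 tested rose. Cpa3, the carboxypeptidase of mast cell and early progenitor granules, went from 2.48 ± 1.38 to 770 ± 281 CPM, Cma1, a mast cell chymase, from 0.628 ± 0.238 to 8.88 ± 4.44 CPM (log2 fold change 3.82, edgeR adjusted p 0.00274), and Mcpt8, a basophil protease, rose by 2.62 on the log2 scale (edgeR adjusted p 0.0202). The mast cell tryptase Tpsab1 had 0 counts in all 6 libraries, Tpsb2 at most 0.218 CPM, and Ms4a2 and Fcer1a, chains of the IgE receptor, did not pass the threshold, at 3.18 ± 2.42 and 24.6 ± 9.92 CPM in knockout cells. Of megakaryocyte genes, 8 of 10 rose and 1 fell, and Pf4 went from 0.809 ± 0.330 to 84.6 ± 31.1 CPM. B cell genes rose in 6 of 7 tested, with a summed level of 1.052 to 4.907 CPM in wild-type libraries against 64.6 to 127.7 CPM in the knockout libraries. In the other direction, 8 of 9 erythroid genes fell, with Hbb-bs, an adult beta-globin, down from 3461 ± 817 to 129 ± 90.6 CPM, and 5 of 11 neutrophil genes fell, among them Elane (log2 fold change -1.82, edgeR adjusted p 0.0413), for which the groups overlapped. Ptprc, which encodes the leukocyte antigen CD45 that red cell precursors lose, rose from 108 ± 56.5 to 578 ± 111 CPM (log2 fold change 2.43, edgeR adjusted p 0.00416).

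**Figure D5:**
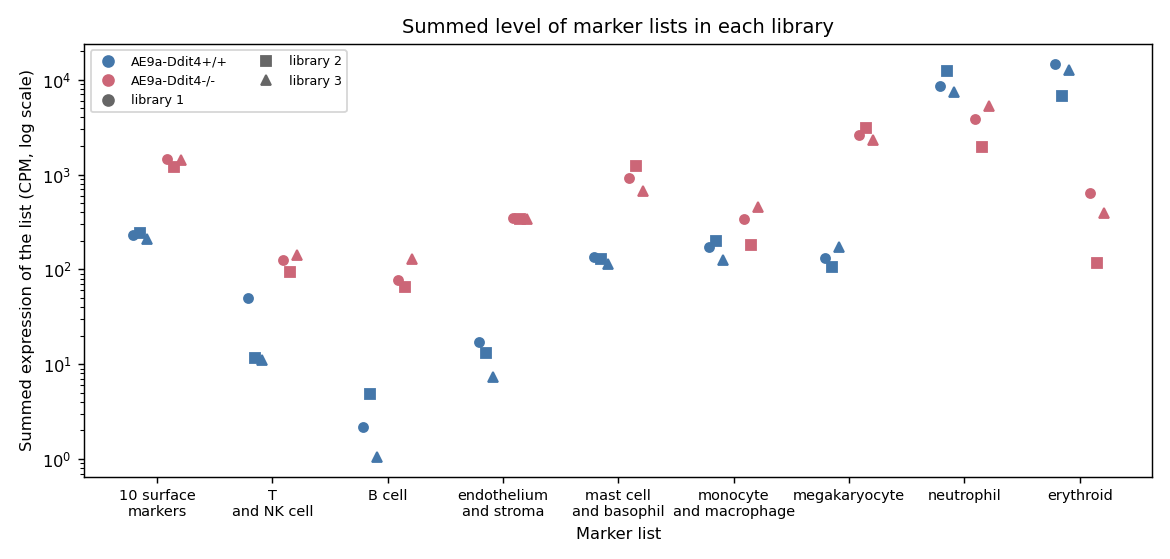
Summed expression of the 10 markers and of 8 lists of lineage markers in each library, in CPM on a log scale, with circles, squares and triangles for libraries 1, 2 and 3. The 10 markers sum to 211.5 to 243.9 CPM in wild-type (blue) and 1193 to 1464 CPM in knockout libraries (red), and erythroid genes go the other way, from 6726 to 14760 CPM down to 117 to 636 CPM.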

How the data were processed

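RNA-seq was measured in 6 libraries of mouse AE9a leukemia cells, grouped by the genotype in the sample titles. The authors deposited 1 table of whole-number counts per gene. The labels name an mRNA library kit and the study's methods a directional kit for rRNA-depleted RNA, and the aligner, the counting tool and the use of strand are not given in the sources used here. The submitters' processing notes name GRCm38 and mm10. Counts of 4, 8 and 12 outnumbered counts of 2, 6 and 10 by 1.38 to 1.61 times per library, so that some fragments may have been counted repeatedly. For this reason 12 counts (0.163 to 0.198 CPM) were taken as the limit of detection, and an alternative used counts divided by 4. Limits cover counting error only.

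Genes were filtered with filterByExpr and compared by edgeR 4.0.16 in R 4.3.3, using its quasi-likelihood F-test (TMM factors 0.921 to 1.05, robust estimation, genotype as the only term), with Benjamini-Hochberg adjustment over 18375 genes and a threshold of 0.05. The test was tested on simulated data. Fold changes are knockout over wild type, and CPM were computed from TMM-scaled totals. SE was taken as the size of the log2 fold change over the root of F. A group with no library above 12 counts gave a bound against that limit in place of a fold change. Positions and exon lengths came from GENCODE M21, which held 99.7% of the identifiers, and promoters from RefSeq. The 10 markers and the 17 further lists were chosen with earlier results of these data known. The 10 markers are always named. Of each further list the text names at most the 2 genes with the largest increase and the 2 with the largest decrease past the threshold, with a mean above 1 CPM in a group, beside defining cell type markers, ligands and partners. A sentence that goes beyond this rule (other SLAM and Fc gamma receptor genes, C1qa, C1qb, Nkg7, Trac, Mcpt8, Pecam1, Ms4a2, Fcer1a, Tpsab1 and Tpsb2, Proc, Csf1r, Pdgfra, Spi1, Cebpa, Mpo, Runx1, Myb, Runx1t1, Ptprc) names genes chosen after their values were seen or as checks of cell type. Alternatives were DESeq2 1.42.0, other scalings and filters, a replicate block and leaving out each library. Some genes that this rule would name are not reported here.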

Additional observations from a re-analysis of the deposited data

How the results depend on the processing

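Over 14 alternatives no fold change of a marker was reversed. Kit, Cd34, Ly6a and Fcgr3 kept their call in all 14, and Thy1 and Procr in the 13 that could test them, since neither had 10 counts in every library. Flt3 lost its call in 7 and Slamf1 in 6, with adjusted p up to 0.144 and 0.122. The count of markers that rose, 8 in the main analysis, was 6 with at least 10 counts in every library (8 markers testable), 7 with the replicate number as a block and 6 to 7 when a library was left out. With all 10 markers testable, it was also 6 over all genes with at least 1 count and 7 with library totals only. The count that fell, 0, was 1 in DESeq2 (Prom1) and 0 to 1 when a library was left out, the 1 being Cd48 without knockout library 3. Unadjusted p was below 0.05 for 1 marker not called, Prom1.

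Over all genes, 3560 rose and 1975 fell. At least 10 counts in every library left 2341 rises, the replicate block gave 2177 rises and 787 falls, and leaving out a library gave 2683 to 3943 rises and 1089 to 2078 falls (1168 without wild-type library 1, 1089 without wild-type library 3 and 1157 without knockout library 1). Of the 23 other surface markers, 14 rose and 2 fell. With at least 10 counts in every library these were 8 and 1, with the block 11 and 1, and without a library 11 to 13 and 1 to 2, with 1 fall without wild-type library 1, knockout library 1 or knockout library 2. The causes of these changes in the counts were not tested. Same-numbered libraries did not deviate together (correlations across genes of -0.238, -0.281 and -0.041). These deviations were taken from the mean of 3 libraries in each group, so they cannot exclude a shared batch. Whether the numbers pair the samples is not known. With 0.1 CPM in place of 0.5 as the added constant, the difference in Ly6a over Kit became 2.22 and that in Procr over Kit -0.28. Leaving out a library gave 3.21 to 4.02 for Slamf1 over Cd48, 4.23 to 4.60 for Cd34 over Fcgr3, 0.97 to 1.80 for Ly6a over Kit, -5.47 to -4.85 for Flt3 over Cd34 and -1.80 to -1.11 for Procr over Kit.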
